A study of Mus musculus with 6 samples.

Results

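Chromosome 10 of the mouse was followed by array comparative genomic hybridisation, in which tumour DNA and reference DNA, labelled with different dyes, compete for the same probes. Its members are the 11705 non-control probes that the denser array design places on chromosome 10 (build mm7), of 235402 non-control probe names in all. They run from position 3002742 to 130044496, and 2010 of them are also on the sparser design, to which they were joined by name. The tumours are ARF-110, ARF-129, ARF-112, ARF-104 and ARF-128, from a study of asbestos-induced mesothelioma, which arises in the cells that line the chest and abdomen. The study's text gives the genotype Arf (+/-) for 4 mice, and which of the 5 titles lies outside those 4 is unknown here. Arf (+/-) mice carry 1 inactivated copy of Arf, and neither the age of the mice nor the construction of the allele is stated. The labels describe primary malignant mesothelioma cells for every tumour but ARF-104, for which no cell type is given, and DNA alone offers no marker by which a cell type could be checked. Tumour DNA was labelled with Cy5 and C57BL/6J DNA with Cy3 throughout, dyes were not swapped, and a log2 ratio above 0 means more tumour than reference signal. All 5 tumours form a single group, set against the same reference, and the numbers in their titles were taken as separate animals.

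An extra or missing copy of a chromosome segment changes the dose of every gene on it, and tumours keep such changes in segments that range from whole chromosomes to a few genes. Mouse chromosome 10 carries Mdm2, the ubiquitin ligase that degrades p53 and that the Arf protein holds back, and Cdk4, the cyclin-dependent kinase that the neighbouring product of the Arf locus, p16Ink4a, inhibits. It also carries a short stretch packed with genes that includes Stk11, a tumour suppressor kinase upstream of AMPK, and Map2k2, a kinase of the RAS to ERK pathway. For scale, a diploid cell population in which every cell gained 1 copy would give a log2 ratio of 0.585.

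A sparser design with 44050 spots was used for ARF-110 and for a first array of ARF-128, and a denser design with 243301 spots for ARF-129, ARF-112, ARF-104 and a second array of ARF-128. The first of these ARF-128 arrays is titled ARF-128 and the second ARF-128PlusMinus. What PlusMinus adds, and whether both arrays hold the same DNA extract, is unknown here. Where 5 values follow each other, they are in the order ARF-110, ARF-129, ARF-112, ARF-104, ARF-128. Neighbouring chromosome 10 probes lay a median of 7999 bp apart on the denser design, and 24546 bp apart on the sparser. The spread of single probes, taken from differences between neighbours, was 0.15 in ARF-110, 0.36 to 0.49 in ARF-129, ARF-112 and ARF-104, 0.78 on the denser ARF-128 array and 0.43 on its sparser array. At most 0.769% of chromosome 10 spots on any array were not well above background. The denser array stands for ARF-128 unless the sparser is named, and the value of the sparser is given beside it for the stretch and for genes where the signs of these arrays are opposite. Along chromosome 10 the 1 Mb bins of these arrays had a Pearson correlation of -0.06, so every mean and count over 5 tumours depends on this choice. Scan day, design and the version of the scanner software coincide except that the denser arrays fall on 2 days, so they cannot be told apart. Both sparser arrays share the first scan day, ARF-129, ARF-112 and ARF-104 share the second, and the denser ARF-128 array has the third.

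The probes at which the results turn are oligonucleotides of 45 to 60 bases, shown with G and C in capitals because the ratios varied with the share of these bases. Their letters and mm7 positions are those of the deposited file, and the strand is not given there. The first set frames the short gain of ARF-112: the last probe before it (chr10:79538579-79538638, Rnf126), its first probe (chr10:79540860-79540904, Rnf126), its last probe (chr10:81044924-81044968, named D45243) and the first probe after it (chr10:81047089-81047147, also D45243). Whether a probe lies in an exon or an intron is not given, since no mm7 annotation was used here.
Last before the gain: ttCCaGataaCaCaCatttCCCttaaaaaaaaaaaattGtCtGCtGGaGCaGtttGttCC
First in the gain: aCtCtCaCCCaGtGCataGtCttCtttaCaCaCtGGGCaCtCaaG
Last in the gain: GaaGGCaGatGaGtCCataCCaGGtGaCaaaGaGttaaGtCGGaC
First after the gain: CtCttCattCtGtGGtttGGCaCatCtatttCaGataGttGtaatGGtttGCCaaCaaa
Both inner probes have 48.9% G and C, against 35% before and 37.3% after the gain. In ARF-112 they read -0.01 and 0.23, and the outer probes read -0.79 and -0.77.

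The second set covers Jsrp1, which has the highest mean of the stretch genes with at least 2 probes on the denser design and encodes a protein of the sarcoplasmic reticulum, and Mdm2. Jsrp1 has 2 probes on the denser design (chr10:80598094-80598142 and chr10:80601704-80601751). Mdm2 has 3 (chr10:117202142-117202201, chr10:117207322-117207381 and chr10:117216555-117216614).
Jsrp1 probe 1: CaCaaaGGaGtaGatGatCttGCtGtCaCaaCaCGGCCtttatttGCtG
Jsrp1 probe 2: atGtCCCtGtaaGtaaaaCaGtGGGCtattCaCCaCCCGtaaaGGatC
Mdm2 probe 1: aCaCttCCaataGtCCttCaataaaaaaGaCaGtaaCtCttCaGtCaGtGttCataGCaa
Mdm2 probe 2: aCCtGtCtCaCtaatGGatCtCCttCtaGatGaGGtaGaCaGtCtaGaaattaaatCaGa
Mdm2 probe 3: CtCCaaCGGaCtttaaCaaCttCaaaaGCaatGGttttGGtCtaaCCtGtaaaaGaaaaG
The Jsrp1 probes have 44.9% and 45.8% G and C, and those of Mdm2 35%, 38.3% and 36.7%. Both Jsrp1 probes were above 0 on every array that holds them. The Mdm2 probes were below 0 on every array but that of ARF-110.

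The third set comes from Raet1a, which encodes a ligand of the NKG2D receptor of natural killer cells, and from the DNA after it, where single probes on the denser design took the most extreme values. The high probes lie at chr10:22044321-22044380 and chr10:22113586-22113639, and the low probes, which carry no gene name, at chr10:22277151-22277210 and chr10:22298411-22298470.
Raet1a high probe 1: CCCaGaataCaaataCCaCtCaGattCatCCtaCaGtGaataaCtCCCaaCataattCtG
Raet1a high probe 2: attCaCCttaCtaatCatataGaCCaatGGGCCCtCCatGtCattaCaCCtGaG
Low probe at 22277151: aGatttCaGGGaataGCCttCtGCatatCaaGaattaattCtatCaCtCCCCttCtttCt
Low probe at 22298411: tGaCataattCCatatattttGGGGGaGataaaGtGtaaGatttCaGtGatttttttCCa

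Segmentation found a single long gain of chromosome 10, in ARF-110. The mean log2 ratio of the whole chromosome was 0.26 in ARF-110, -0.02 in ARF-129, -0.10 in ARF-112, -0.09 in ARF-104 and -0.03 in ARF-128. The sparser ARF-128 array gave -0.05. ARF-110 therefore stood apart above 0, and the other 4 tumours lay just below 0. The mean over tumours was 0.01 ± 0.15 (SD, n = 5), and -0.06 ± 0.04 (SD, n = 4) without ARF-110. Among the autosomes of each array, chromosome 10 ranked 3rd from the top in ARF-110, and 8th to 15th on the other arrays. With each array centred on its bins outside called segments in place of the median of all autosomal probes, the chromosome mean turned to 0.004 in ARF-104 and 0.004 in ARF-128 and stayed below 0 in ARF-112 (-0.08) and ARF-129 (-0.001). That centring gave 0.32 in ARF-110.

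In ARF-110 a segment was called gained where its mean reached 0.25, and 1839 probes from 17538860 to 129866929, or 112.3 Mb, had a mean of 0.267, a signal ratio of 1.203. The segment before it, from 3051921 to 14996241, had 0.246 over 166 probes and so fell just short of a call. Between them, 5 probes from 14998575 to 17513827 had a mean of -0.38 and were called lost. Those 5 probes span Cited2, a coactivator-binding regulator of hypoxia responses, and 3 names without a gene symbol. Over the same span the sparser ARF-128 array gave -0.87 from the same 5 probes, while the denser arrays, with 99 probes each, gave -0.15 in ARF-129, -0.29 in ARF-112, -0.21 in ARF-104 and -0.10 in ARF-128. Of the 1 Mb bins of ARF-110, 105 of 118, or 89.0%, lay in gained segments, where 13.0% of all its autosomal bins did. The bins varied little about the segment mean, with an SD of 0.08, and 116 of 118 were above 0. At a call threshold of 0.35 none of them was called gained.

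**Figure D1:**
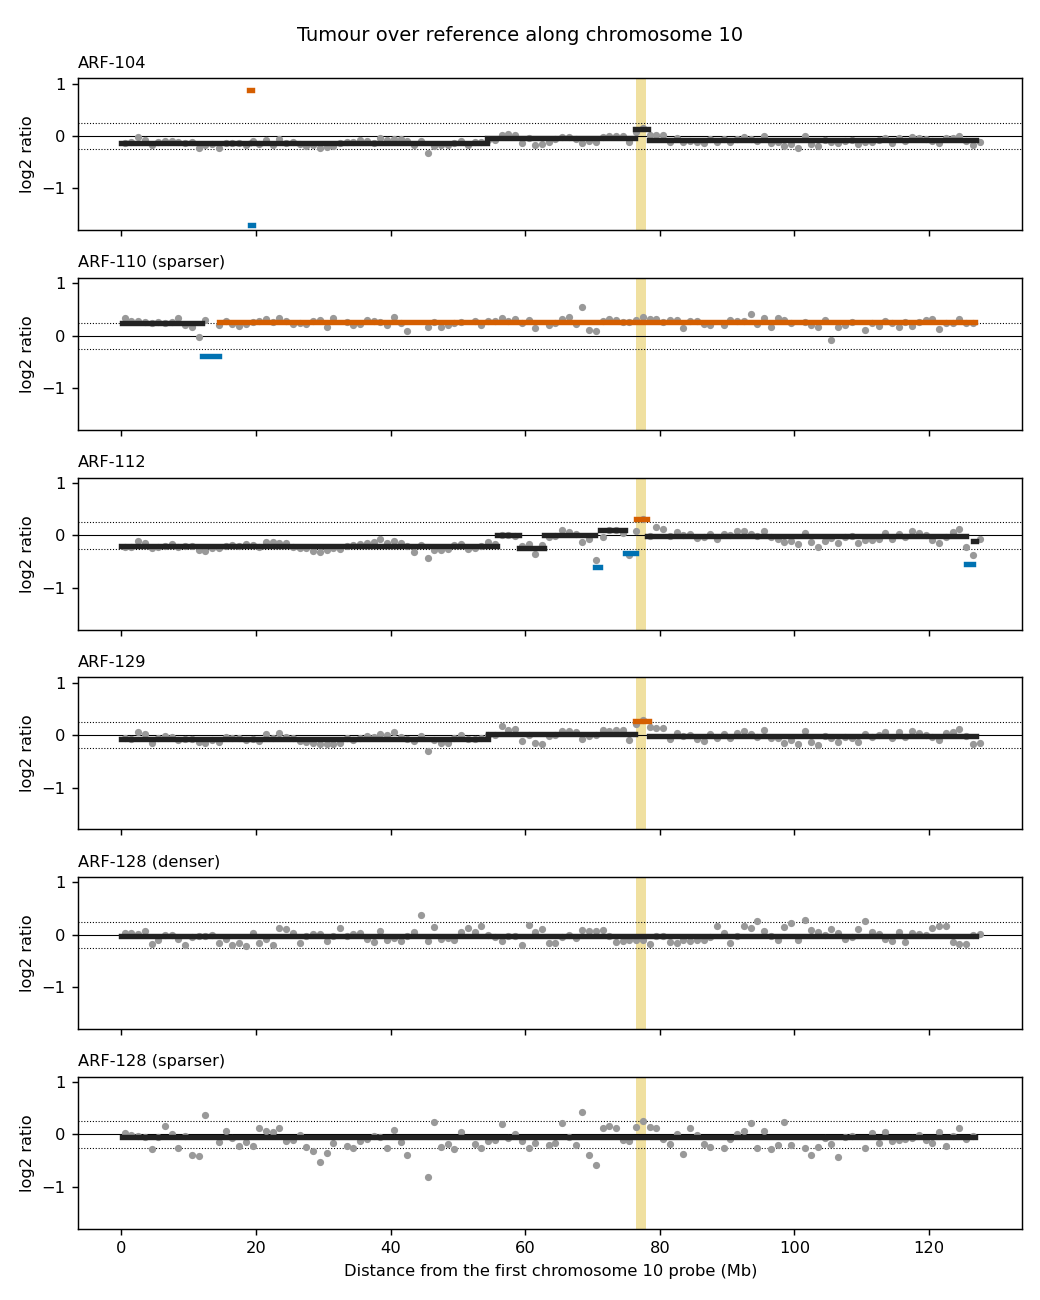
Log2 ratio of tumour over reference along chromosome 10 for each of the 6 arrays, against the distance from the first probe. Grey points are 1 Mb bins, bars are segment means (orange gained, blue lost, black not called, drawn at least 0.4 Mb wide), dotted lines mark the call threshold of 0.25 in either direction, and the shaded band is the gene-dense stretch. The ARF-110 bins lie almost throughout near 0.27, while ARF-112 and ARF-129 have a short gain at the band.

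ARF-112 and ARF-129 each had a short gain at the gene-dense stretch. In ARF-112 the gain ran from 79540860 to 81044968, with a mean of 0.316 over 305 probes. In ARF-129 it ran from 79349985 to 81325525, with a mean of 0.278 over 400 probes. In ARF-104 a segment with nearly the same ends, 79363725 to 81323121, had a mean of 0.14 over 397 probes and was not called. Neither ARF-128 array was divided at all on chromosome 10. In ARF-110 the stretch lay inside the long gain. The gains of ARF-110, ARF-112 and ARF-129 overlapped from 79540860 to 81044968, which is the whole short gain of ARF-112, 1.504 Mb and 79 gene names.

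Values of the stretch itself were taken over the 306 probes from 79500370 to 80993352 on the denser design, of which those shared with the sparser design were used there. The mean log2 ratio was 0.34 in ARF-110, 0.26 in ARF-129, 0.29 in ARF-112, 0.13 in ARF-104 and -0.11 in ARF-128. The sparser ARF-128 array gave 0.23. The stretch was thus above 0 in 4 of 5 tumours, and the arrays of ARF-128 fell on either side of 0. The rest of the chromosome had means of 0.26, -0.02, -0.11, -0.09 and -0.03 in the same order of tumours, and -0.07 on the sparser ARF-128 array. The difference, stretch minus rest, was 0.09 in ARF-110, 0.29 in ARF-129, 0.40 in ARF-112, 0.23 in ARF-104 and -0.08 in ARF-128, with a mean of 0.18 ± 0.19 (SD, n = 5). On the sparser ARF-128 array it was 0.30. Because the stretch was chosen from these ratios, the differences are given as a description, without a test.

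The share of single probes above 0 was larger in the stretch than in the rest on 5 of 6 arrays. It was 69.0% of stretch probes against 42.0% of the rest in ARF-104, 75.2% against 41.9% in ARF-112 and 71.9% against 50.1% in ARF-129. In ARF-110 it was 98.1% against 94.3%. The denser ARF-128 array had 48.4% against 49.1%, and the sparser had 73.1% against 47.3%. The denser ARF-128 array was thus the exception.

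On the probes that both designs share, the difference between the stretch and the rest was 0.09 in ARF-110, 0.39 in ARF-129, 0.46 in ARF-112, 0.29 in ARF-104 and 0.08 in ARF-128. On the same probes the stretch mean of the denser ARF-128 array was -0.12. On this probe set the difference was thus above 0 on every array.

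**Figure D2:**
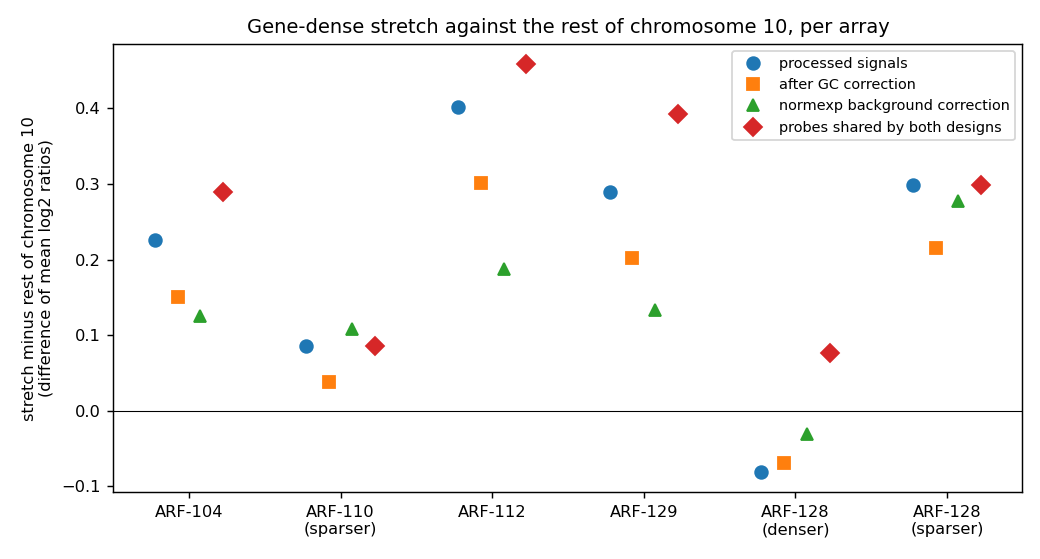
Difference between the mean log2 ratio of the gene-dense stretch and that of the rest of chromosome 10, for each array under 4 treatments of the signals; a point is 1 array. The difference is above 0 for every array and treatment except the denser ARF-128 array, which is below 0 under 3 of the 4.

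The segment just before the short gain of ARF-112 was lower in that tumour than in the others. In ARF-112, 181 probes from 77906165 to 79538638 had a mean of -0.34 and were called lost, directly before the gain. The end of this loss takes in the start of the stretch, from 79500370, with Hcn2, Polrmt, Fgf22 and the first probe of Rnf126. This flank holds Ilvbl, an acetolactate synthase-like protein, Casp14, a protease of skin differentiation, Cdc34, a ubiquitin-conjugating enzyme, and Gzmm, a granule protease of natural killer cells. Over the same span the means were 0.26 in ARF-110, 0.01 in ARF-129, -0.05 in ARF-104 and -0.07 in ARF-128, and -0.07 on the sparser ARF-128 array. After the gain the ARF-112 ratio returned to -0.01 over 4296 probes. The step at 79540860 thus went from -0.34 to 0.32 in ARF-112.

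**Figure D3:**
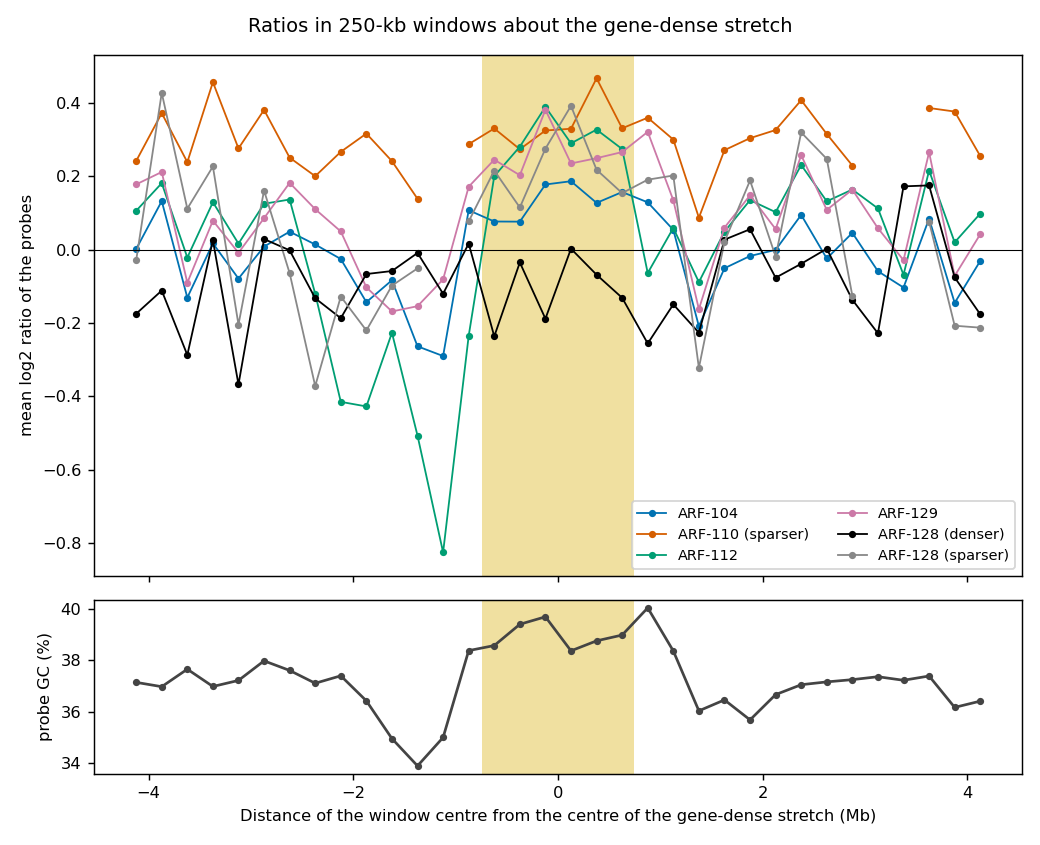
Upper panel: mean log2 ratio of the probes in windows of 250 kb on each array, against the distance of the window from the centre of the gene-dense stretch (shaded). Lower panel: mean share of G and C in the probes of each window. In the shaded band ARF-104, ARF-110, ARF-112, ARF-129 and the sparser ARF-128 array lie above 0, the denser ARF-128 array lies at or below 0.0024, and the probes are richer in G and C than in the windows 1 to 2 Mb before its centre. The window just after the band has 40.0% G and C, more than the richest window in the band, with 39.7%.

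The stretch differed from its surroundings in base composition and gene density. Its probes held 39.0% ± 4.18 G and C (SD over 306 probes), against 36.5% ± 2.54 over the 11399 other probes of the chromosome. It carried 78 gene names, 52.0 per Mb, against 9.3 per Mb elsewhere on the chromosome. Probes were also closer, at 204 per Mb against 90.8. Among 2389 autosomal bins, the bin from 79000001 ranked 7th and the next 6th by probe G and C, with 42 and 48 gene names. Neither trait was particular to the stretch. The bin from 81000001, beside it, had 38 gene names and ranked 14th by probe G and C, and the bin from 127000001 had 50 gene names.

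On every array but the denser one of ARF-128, fitted ratios rose across that range of base composition over all autosomal probes. Probes with 30% and with 50% G and C had fitted log2 ratios of -0.21 and 0.35 in ARF-104, -0.24 and 0.45 in ARF-112, and -0.28 and 0.39 in ARF-129. The slope was flatter in ARF-110, with -0.05 and 0.16, and intermediate on the sparser ARF-128 array, with -0.21 and 0.19. On the denser ARF-128 array the fit ran from -0.25 to -0.09, with its highest values between these ends. After this trend was subtracted, the difference between the stretch and the rest was 0.04 in ARF-110, 0.20 in ARF-129, 0.30 in ARF-112, 0.15 in ARF-104 and -0.07 in ARF-128, and 0.22 on the sparser ARF-128 array. The mean of tumours went from 0.18 to 0.12 ± 0.14 (SD, n = 5). No chromosome 10 bin of ARF-112 or ARF-129 was called gained after the correction, though the differences kept their sign.

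The stretch was brighter in both channels before any ratio was taken. The raw signal of stretch over rest, in log2, was 0.33 in red and 0.13 in green for ARF-104, 0.48 and 0.32 for ARF-110, 0.39 and 0.06 for ARF-112, and 0.39 and 0.13 for ARF-129. For ARF-128 it was -0.17 and -0.16 on the denser and 0.59 and 0.27 on the sparser array. Only the denser ARF-128 array had a dimmer stretch in both channels. The normexp method was run on these raw signals, without the scanner software's own processing, and adds an offset of 50 to both channels. With it, the difference of ratios between stretch and rest was 0.11 in ARF-110, 0.13 in ARF-129, 0.19 in ARF-112, 0.13 in ARF-104 and -0.03 in ARF-128, and 0.28 on the sparser ARF-128 array. Whether base composition or signal strength sets the size of the short gains was not tested beyond these values.

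Over the 118 bins with a value in every tumour, 2 were in gained segments in at least 3 tumours, those from 79000001 to 81000000, and they were gained in ARF-110, ARF-112 and ARF-129. Over all autosomes 12.3% of bins were gained in at least 3 tumours. ARF-112 and ARF-129 each had 2 chromosome 10 bins gained, or 1.56%, where 8.79% and 20.0% of all their autosomal bins were gained. ARF-104 and ARF-128 had none, where 17.0% and 7.7% were gained, and for ARF-128 the limit from probe noise given above holds. Another 103 bins were gained in ARF-110 alone, and 13 in no tumour. The count of bins gained in at least 3 tumours fell to 0 after the correction for base composition, with normexp, with shared probes alone, with a segmentation penalty of 10 log n and at a threshold of 0.35. It also fell to 0 without ARF-110, ARF-112 or ARF-129, since each is needed to reach 3.

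The bin from 80000001 had the highest value of the chromosome in ARF-104 (0.16), ARF-112 (0.32) and ARF-129 (0.28), and ranked 3rd in ARF-110 (0.36) and on the sparser ARF-128 array (0.26). On the denser ARF-128 array it ranked 94th, at -0.10. Its mean was 0.21 ± 0.19 (SD, n = 5), and that of the bin before it 0.12 ± 0.15. No chromosome 10 bin passed an adjusted p of 0.05 by limma in either direction, where 3.9% of all autosomal bins passed as higher and 0.642% as lower. At an unadjusted p under 0.05, 1 bin was higher and 0 were lower. The share of all autosomal bins at that unadjusted threshold is not given here, so nothing is read from these counts. With ARF-128 read on its sparser array, 1 chromosome 10 bin passed as higher. A single bin was above 0 in all 5 tumours, that from 98000001 (0.12 ± 0.12), where 5.51% of autosomal bins were, and a single bin was below 0 in all 5, that from 14000001 (-0.13 ± 0.12), where 18.7% were.

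Bins of ARF-104, ARF-112 and ARF-129 also varied with base composition along the chromosome. Over the bins of the denser design, whose probes are the same on each array, the Pearson correlation of bin value with probe G and C was 0.69 in ARF-129, 0.58 in ARF-112, 0.70 in ARF-104 and -0.17 in ARF-128. Over 118 bins it was 0.31 in ARF-110 and 0.44 on the sparser ARF-128 array. Between the ARF-128 arrays, bin values had a correlation of -0.06 over 118 bins, and 0.0002 after the correction for base composition. The denser ARF-128 array had 0.01 with ARF-104, -0.04 with ARF-112 and -0.02 with ARF-129, and the sparser had 0.45, 0.41 and 0.47. With ARF-110 the denser had -0.10 and the sparser 0.62. ARF-104, ARF-112 and ARF-129, which share a scan day, had 0.79 to 0.95 with each other. All these correlations are over bins, which are not independent, and carry no test.

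Outside the stretch ARF-112 had 2 further short losses. In the first, 102 probes from 73318848 to 74143049 had a mean of -0.60 over Pcdh15, a cadherin of the hair cells of the inner ear. The same span had -0.03 in ARF-129, -0.13 in ARF-104 and 0.03 in ARF-128 on the denser design. On the sparser design it holds 3 probes, which gave -0.50 in ARF-128 and 0.06 in ARF-110. The second ran from 128460006 to 129496122, with -0.54 over 192 probes, and holds Itga7, the laminin-binding integrin alpha chain of muscle, and a cluster of olfactory receptor genes. There the other tumours had 0.25 in ARF-110, -0.14 in ARF-129, -0.16 in ARF-104 and -0.02 in ARF-128. On the denser arrays, then, both spans fell past -0.25 in ARF-112 alone. The proximal part of the chromosome, to 58843606, was also lower in ARF-112, at -0.20 over 4696 probes, without reaching a call, and ARF-104 had -0.13 over nearly the same span.

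The shortest called gain was found in ARF-104 at Raet1a, from 22044321 to 22117432, where 9 probes had a mean of 0.87. The same 9 probes had means of 0.97 in ARF-129, 0.55 in ARF-112 and 1.24 in ARF-128, although no separate segment was set there in those tumours. Their mean was 0.91 ± 0.29 (SD, n = 4), and at least 8 of the 9 probes were above 0 in each of the 4 tumours. The sparser design has no probe in this span, so ARF-110 was not measured there. The next 5 probes, from 22128153 to 22298470, were called lost in ARF-104, with a mean of -1.69. They had -1.36 in ARF-129, -0.74 in ARF-112 and -2.59 in ARF-128.

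Most of that fall came from 2 probes. The probe at 22298411 read -2.55 in ARF-129, -1.39 in ARF-112, -3.08 in ARF-104 and -6.60 in ARF-128, and the probe at 22277151 read -2.79, -0.91, -3.81 and -4.72 in the same order. All 4 tumours thus had the same direction at each, with ARF-112 nearest 0 and ARF-128 farthest from it. The tumours share their reference DNA, so the values are given side by side and their likeness is not read as recurrence.

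**Figure D4:**
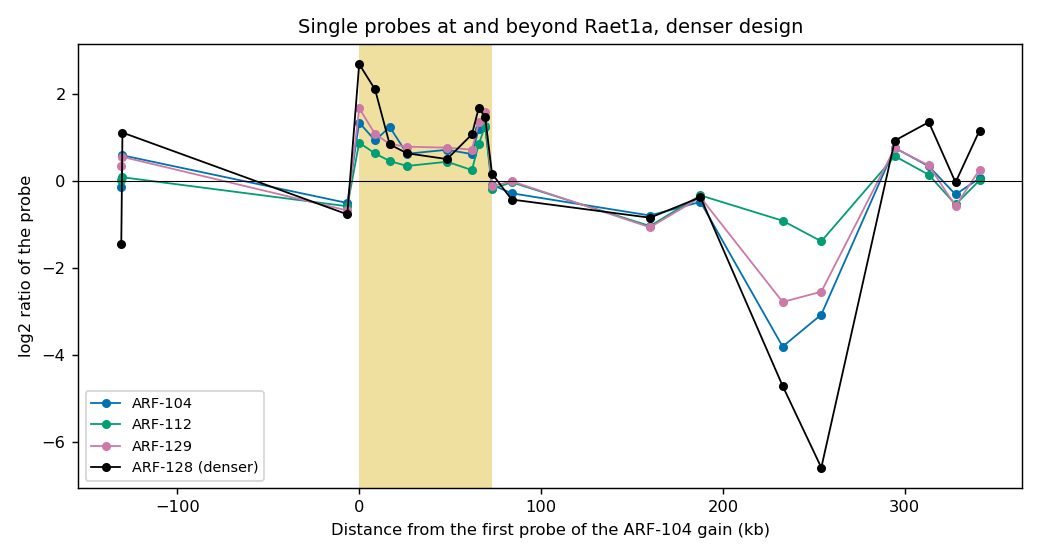
Log2 ratio of single denser-design probes at Raet1a and after it, against the distance from the first probe of the ARF-104 gain (shaded); lines join the probes of 1 tumour. At least 8 of the 9 shaded probes are above 0 in each tumour, and the lowest probe of each tumour is 1 of the same 2, at 22277151 or 22298411.

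The genes of the stretch did not share a single value. A gene's value is the mean of its own probes, which for 417 of the chromosome's 1245 gene names is 1 probe on the denser design. Of the 78 gene names in the stretch, 65 had a value in every tumour. Their median value was 0.34 in ARF-110, 0.26 in ARF-129, 0.28 in ARF-112, 0.16 in ARF-104 and -0.10 in ARF-128, and 0.26 on the sparser ARF-128 array. On average 53 of 65 were above 0, and 27 were above 0 in all 5 tumours, where 14.7% of all autosomal genes were. The median of the gene means was 0.17, beside -0.01 over the other 947 measured genes of the chromosome and -0.01 over all 20070 autosomal genes tested. By limma, with an intercept and Benjamini-Hochberg adjustment over those 20070 genes, 13 of the 65 were higher at an adjusted p under 0.05 and none was lower (27 and 1 at an unadjusted p under 0.05), where 8.08% of all genes were higher and 6.7% lower. The stretch was set from the same ratios, so nothing is read from that count or from those of the stretch lists below, and its single genes are given without a p-value. The shares of all genes, here and in the lists below, are at an adjusted p under 0.05. Shares at an unadjusted p are not given, so nothing is read from the unadjusted counts. No gene of chromosome 10 passed without ARF-104, without ARF-112, without ARF-129, or with scan day as a random block.

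Jsrp1 was the highest of the stretch genes with at least 2 probes. Its value was 0.44 in ARF-110, 1.42 in ARF-129, 1.11 in ARF-112, 0.81 in ARF-104 and 0.88 in ARF-128, and 0.81 on the sparser ARF-128 array. All 6 arrays were above 0, the lowest being that of ARF-110. The mean was 0.93 ± 0.36 (SD, n = 5), and 0.74 after the correction for base composition.

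Tmem259, which encodes membralin, a protein of the endoplasmic reticulum, read 0.41, 0.70, 0.70, 0.60 and 0.92 in ARF-110, ARF-129, ARF-112, ARF-104 and ARF-128. Arid3a, a DNA-binding transcription factor of B cells, read 0.42, 0.48, 0.48, 0.26 and 0.38 in the same order. Both were above 0 on every array, with spreads of 0.19 and 0.09 (SD, n = 5). The mean of Tmem259 went from 0.67 to 0.41 with normexp. Diras1, a small GTPase of the RAS family, averaged 0.50 ± 0.49 (SD, n = 5), with 1.38 in ARF-128. Its values in ARF-110, ARF-129, ARF-112 and ARF-104 were 0.26, 0.31, 0.31 and 0.26. The sparser ARF-128 array gave -0.47, so the arrays of ARF-128 had opposite signs. On its shared probe the mean was -0.06.

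Of the 13 listed signalling genes in or at the edge of the stretch, 12 were measured, and 3 were higher and none lower by limma (4 and 0 at an unadjusted p under 0.05), beside 8.08% and 6.7% of all genes. The median of gene means was 0.14. Fstl3, a secreted inhibitor of activins, had 0.61, 0.94, 0.79, 0.82 and 0.57 in ARF-110, ARF-129, ARF-112, ARF-104 and ARF-128, from 1 probe (0.75 ± 0.15). Efna2, an ephrin ligand of Eph receptors, had 0.43, 0.48, 0.63, 0.21 and 0.30. Bsg, the surface glycoprotein basigin, lies just before the stretch and had 0.37, 1.30, 0.38, 0.72 and 0.42, also from 1 probe. In each of these the lowest tumour was still above 0, and a different tumour was lowest for Fstl3, Efna2 and Bsg. Stk11 had 0.36, 0.06, 0.22, 0.10 and 0.08 (0.16 ± 0.13), and its sparser ARF-128 value was -0.65. The ARF-110 value rests on the 1 probe that both designs hold, and on that probe alone the mean of the 5 tumours turned to -0.77. The Stk11 values of the denser arrays lay closer to 0 than the stretch means of ARF-112 and ARF-129. Mknk2, a kinase that phosphorylates eIF4E, had 0.55, 0.41, 0.40, 0.26 and -0.62, and Gadd45b, a stress-induced regulator of growth arrest, had 0.36, 0.30, 0.23, 0.06 and -0.77. On the sparser ARF-128 array they read 0.59 and 0.09, so the negative values stand on the denser array alone.

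Among the transcription and chromatin genes, 6 of 11 listed were measured. Of these 2, Arid3a and Dot1l, were higher and none lower by limma (2 and 0 at an unadjusted p under 0.05), beside 8.08% and 6.7% of all genes. Dot1l, the methyltransferase of histone H3 lysine 79, had 0.40 in ARF-110, 0.45 in ARF-129, 0.40 in ARF-112, 0.16 in ARF-104 and 0.21 in ARF-128, over 7 probes (0.32 ± 0.13). Its sparser ARF-128 value was -0.01, and the mean was 0.15 with normexp and 0.11 on shared probes. Tcf3, which encodes the E proteins of lymphocyte development, had 0.35, 0.35, 0.29, 0.17 and -0.33 in that order, and 0.38 on the sparser ARF-128 array. Mbd3, a subunit of the NuRD complex, was among the 4 lowest genes of the stretch, with 0.42, 0.14, -0.01, -0.17 and -1.18. Mbd3 was above 0 on the sparser ARF-128 array, at 0.56, against -1.18 on the denser one.

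The mitochondrial and redox list had 4 of 7 genes measured, and 1 was higher and none lower by limma (2 and 1 at an unadjusted p under 0.05), beside 8.08% and 6.7% of all genes. That gene was Oaz1, the antizyme that restrains ornithine decarboxylase (0.40 ± 0.23). Ndufs7, a subunit of complex I, had 0.24, 0.60, 0.74, 0.35 and -0.14 in ARF-110, ARF-129, ARF-112, ARF-104 and ARF-128, and 0.33 on the sparser ARF-128 array. Timm13, a chaperone of the mitochondrial intermembrane space, was the lowest named gene of the stretch, with 0.11, -0.57, -0.55, -0.67 and -1.57 from 1 probe. It was below 0 on every denser array and above 0 on both sparser arrays, where ARF-128 read 0.09. Its mean went from -0.65 to -0.19 with normexp. Of the 3 neutrophil and complement genes, Prtn3, a serine protease of neutrophil granules, was higher by limma at 0.46, 0.36, 0.58, 0.28 and 0.83, and none was lower (1 and 0 at an unadjusted p under 0.05). Elane, its neighbour, read 0.35, 0.49, 0.50, 0.29 and -0.88, and Cfd, complement factor D, read 0.40, -0.08, 0.07, -0.07 and 0.33. On the sparser ARF-128 array both signs were opposite, with 0.23 for Elane and -0.36 for Cfd.

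In the remaining list of muscle, lipid and other genes, 10 of 11 were measured. Of these 3, Jsrp1, Ap3d1 and Thop1, were higher and none lower by limma (6 and 0 at an unadjusted p under 0.05), beside 8.08% and 6.7% of all genes. Ap3d1, a subunit of the AP-3 sorting complex, had 0.40, 0.26, 0.34, 0.37 and 0.27 in ARF-110, ARF-129, ARF-112, ARF-104 and ARF-128 over 6 denser probes and 1 sparser probe (0.33 ± 0.06). On the shared probe alone its mean was 0.81. Thop1, a cytosolic peptidase, had 0.31, 0.45, 0.59, 0.32 and 0.17. Wdr18 and Arhgap45 were among the lowest 4 genes by the naming rule, at -0.22 ± 0.47 and -0.24 ± 0.32. Wdr18 was lowest in ARF-128 (-1.03, and 0.07 on the sparser array) and highest in ARF-110 (0.15). Arhgap45 had -0.62 and 0.14 on the ARF-128 arrays, and its mean turned to 0.03 with normexp and to 0.47 on shared probes.

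**Figure D5:**
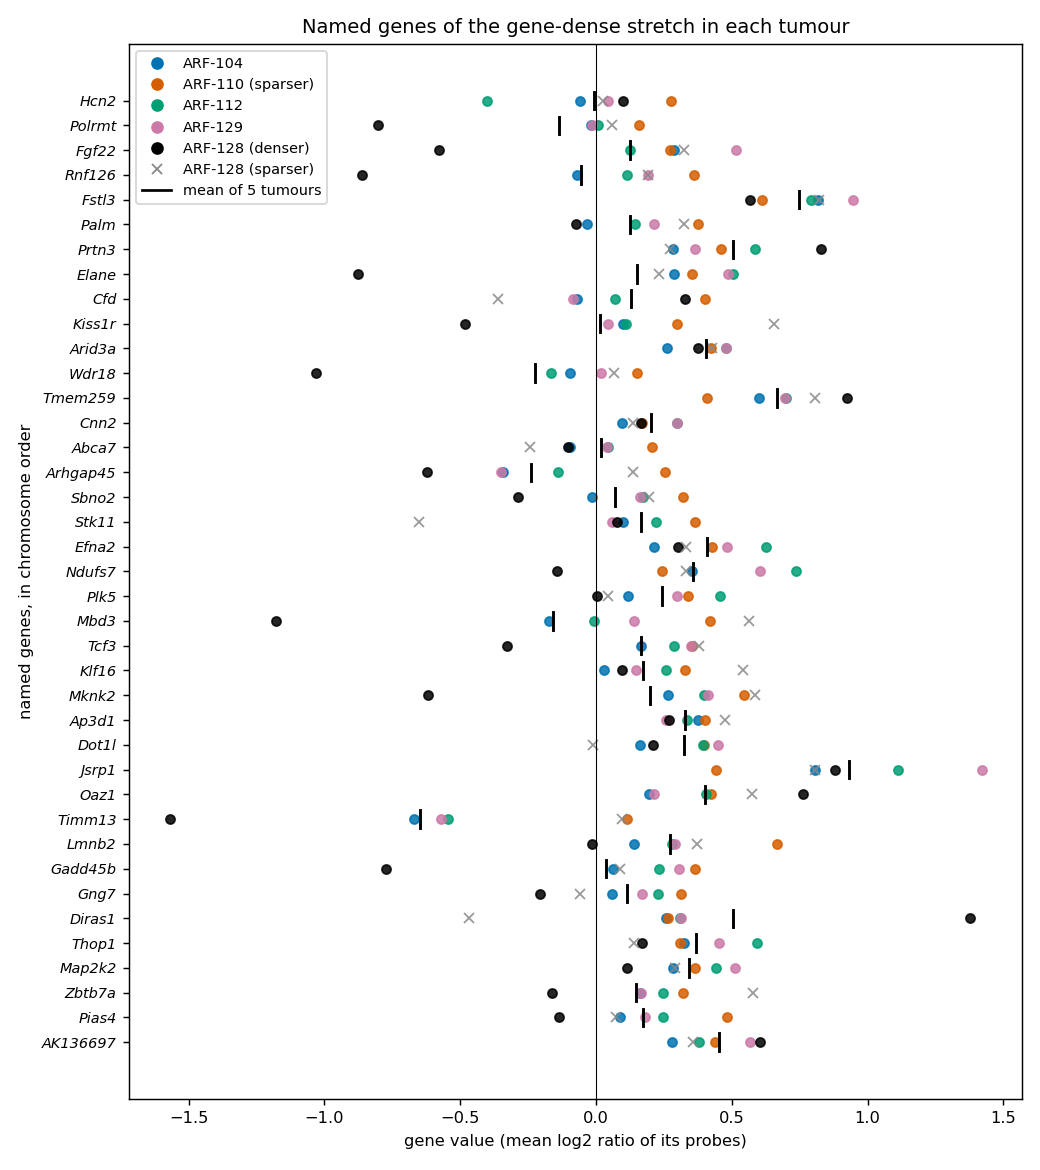
Value of each named gene of the gene-dense stretch (mean log2 ratio of its probes) in each tumour, in chromosome order; crosses are the sparser ARF-128 array and short bars the mean of 5 tumours. Jsrp1, Tmem259 and Fstl3 lie above 0 on all 6 arrays, and the lowest point of Timm13, Mbd3 and Wdr18 is that of the denser ARF-128 array.

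Genes of the p53 pathway and cell cycle were measured in 15 of 15 cases along the chromosome, and none was higher by limma while 1 was lower (1 and 3 at an unadjusted p under 0.05), beside 8.08% and 6.7% of all genes. The median of gene means was -0.01. The lower gene was Mdm2. It read 0.26 in ARF-110, -0.93 in ARF-129, -0.84 in ARF-112, -0.76 in ARF-104 and -1.05 in ARF-128, and -0.24 on the sparser ARF-128 array. ARF-110, with its long gain, was the single tumour above 0. The mean was -0.66 ± 0.53 (SD, n = 5, adjusted p of 0.044 by limma), and -0.12 with normexp. Mdm2 was also named for its low mean. Like every gene of the chromosome, it did not pass without ARF-104, without ARF-112, without ARF-129, or with scan day as a random block. Nothing is therefore read from its p-value. Its 3 probes differed, with means over the denser arrays of -1.07, -1.17 and -0.44, and the segments over Mdm2 averaged 0.03, so no segment call covers the low value. Cdk4, from 1 probe, read 0.45, -0.46, -0.23, -0.70 and -1.53 in ARF-110, ARF-129, ARF-112, ARF-104 and ARF-128 (adjusted p of 0.17 by limma). Its sparser ARF-128 value was -0.10, and the mean went from -0.49 to -0.07 with normexp. As for Mdm2, ARF-110 alone was above 0. Plagl1, a zinc-finger inducer of arrest, was above 0 in all 5 tumours (0.26 ± 0.16) without passing (adjusted p of 0.087 by limma).

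Of the 16 growth and oncogene list members, all measured, 3 were higher by limma and none was lower (4 and 0 at an unadjusted p under 0.05), beside 8.08% and 6.7% of all genes, with a median of 0.16. They were Erbb3, near the distal end, and Dot1l and Map2k2, which lie in the stretch set from these ratios. Map2k2 had 0.37, 0.51, 0.44, 0.28 and 0.12 in ARF-110, ARF-129, ARF-112, ARF-104 and ARF-128 over 5 probes (0.34 ± 0.15), and its mean was 0.52 on shared probes. Erbb3, the neuregulin receptor that pairs with other ERBB kinases, had 0.37, 0.68, 0.51, 0.32 and 0.18 (0.41 ± 0.19, adjusted p of 0.032 by limma). In both genes every array was above 0. Erbb3 was also named for its high mean and did not pass in the fits in which Mdm2 did not, so nothing is read from its p-value. Away from the stretch, Myb read 0.14, -0.13, -0.15, -0.12 and -0.40, and the receptor kinase Ros1 read 0.14, -0.25, -0.39, -0.26 and -0.36. Kitl, the ligand of KIT, read 0.34, -0.06, -0.07, -0.19 and -0.13, and 0.15 on the sparser ARF-128 array. For Myb, Ros1 and Kitl, ARF-110 was the only tumour above 0 with ARF-128 read on its denser array. With normexp the means of Myb and Kitl turned to 0.02 and 0.04. E2f7 was below 0 in ARF-110 as well, at -0.15, and between -0.42 and -0.04 in the other tumours.

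The TNF, NF-kB and interferon genes, which bear on the pathway in the study's title, had 11 of 15 members measured, and none passed in either direction by limma (0 higher and 2 lower at an unadjusted p under 0.05), beside 8.08% and 6.7% of all genes. The median was 0.01. Tnfaip3, the deubiquitinase A20 that shuts NF-kB signalling off, read 0.08, -0.57, -0.57, -0.30 and -0.05 in ARF-110, ARF-129, ARF-112, ARF-104 and ARF-128 (adjusted p of 0.13 by limma). Irak3, an inhibitor of Toll-like receptor signalling, read 0.13, -0.42, -0.36, -0.43 and -0.52, and Tbk1, an IKK-related kinase, read 0.22, -0.19, -0.12, -0.27 and -0.27. In all 3 genes the 4 tumours without the long gain lay below 0 and ARF-110 above it. With normexp the means were -0.03 for Tnfaip3, -0.09 for Irak3 and -0.01 for Tbk1, against -0.28, -0.32 and -0.13. Of the 7 Hippo and Wnt genes 5 were measured and none passed by limma (1 higher and 0 lower at an unadjusted p under 0.05). Tle2, a Groucho corepressor just beyond the stretch, had 0.50, 0.48, 0.40, 0.19 and 0.05, and 0.63 on the sparser ARF-128 array.

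Over the whole chromosome 69 of 1012 genes with a value in every tumour were higher by limma at an adjusted p under 0.05 and 31 were lower, beside the 8.08% and 6.7% of all autosomal genes. With ARF-128 read on its sparser array the counts were 136 and 70, and without ARF-110 they were 80 and 172 of 1245. The shares of all autosomal genes in those other fits are not given here, so the shifts are not read as particular to chromosome 10. Outside the stretch 56 of 947 were higher and 31 lower. Among genes there with at least 3 probes the highest mean was 0.50, for a transcript named AK033206 (0.36, 0.67, 0.48, 0.36 and 0.62), followed by Olfr769, an olfactory receptor gene (0.42 ± 0.43). Ikbip, an IKK-interacting protein, averaged 0.42 ± 0.36 (0.37, 0.22, 0.21, 0.24 and 1.05), and Gstt1, a glutathione transferase, 0.40 ± 0.22. Erbb3 lay between Ikbip and Gstt1, and the sparser ARF-128 array gave 0.22 for Ikbip. The lowest was Ilvbl (0.07, -0.76, -1.12, -0.76 and -1.43), then Mdm2, Baz2a, a subunit of the nucleolar remodelling complex (0.13, -0.65, -0.51, -0.50 and -0.995), Snx3, a sorting nexin (0.14, -0.67, -0.55, -0.47 and -0.98), and Dnajc12, a J-domain cochaperone (0.17, -0.49, -0.49, -0.50 and -1.16). All 5 of the lowest genes were above 0 in ARF-110 and below 0 in the other 4 tumours. With normexp the means of Ilvbl, Baz2a, Snx3 and Dnajc12 were -0.25, -0.18, -0.14 and -0.24, against -0.80, -0.51, -0.50 and -0.49, and that of AK033206 was 0.24.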

How the data were processed

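The members, gene lists and tests were chosen with earlier results of these data known. Per the file headers, the authors used Agilent Feature Extraction to make a processed red and green intensity per spot: version 8.5.1.1 for the sparser arrays, 9.1.3.1 for those of ARF-129, ARF-112 and ARF-104, and 9.5.3.1 for the denser ARF-128 array. The deposited files also hold a log10 ratio of red over green per spot. The deposited value table repeats these ratios, in log10 for the sparser arrays, with medians of 0.0 (ARF-110) and 0.0185 (ARF-128), and in log2 for the denser ones, with medians of 0.0317 (ARF-129), 0.0232 (ARF-112), 0.02 (ARF-104) and 0.0491 (ARF-128). These scales and the direction follow from setting each column against its array (r of at least 0.995), and the table was not centred.

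Log2 ratios of processed intensities were computed without control spots and spots flagged as outliers, averaged per probe name and centred on the autosomal median of each array. Segments of 5 or more probes came from PELT with a penalty of 5 log n, and those whose mean reached 0.25 above or below 0 were called. A 1 Mb bin took the median of its probes' segment means as its call. Bins (2179) and genes (20070) with a value in every tumour were set against 0 with limma 3.58.1 (an intercept and eBayes, p-values adjusted by Benjamini-Hochberg); the reference DNA's own spread does not enter. Scripts were tested on simulated data. The trend with base composition was a local linear fit over 5 percentage points on either side. The normexp setting took raw mean and background signals and an offset of 50 in place of processed intensities. The parts of background removal, offset and skipped processing in its changes were not tested.

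Gene names on chromosome 10 were matched by accession (733), symbol (13) or synonym (6) to a table of GRCm38.p6, from which only names were taken; the other 493 stand as the files give them. Genes named are the members of the lists, the 6 highest and 4 lowest of the stretch (at least 2 denser probes) and the 5 highest and 5 lowest elsewhere (at least 3), with values for those the results turn on. Itga7, Pcdh15, Cited2, Raet1a, Grik2, Tmtc2 and the genes of the flank were named from their segments or bins after their values were seen. Positions are mm7, stated in the header of the denser ARF-128 file and joined to the others by probe name, and the sparser design's own build is unstated in its headers. Precision is limited by the number of arrays. Other tools were Python 3.11.15 with numba 0.67.0, pandas 2.3.3, numpy 2.4.6 and matplotlib 3.10.9, and R 4.3.3 with statmod 1.5.0.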

Additional observations from a re-analysis of the deposited data

Results flagged for a closer look

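A tumour far from the other 4 was sought in each value, by the gap to the nearest tumour divided by the whole range of the 5; a gap above 0.71 is kept here, which chance gives in about 1 of 20 groups. ARF-110 stood apart in the mean of chromosome 10 (a gap of 0.7792 of the range), in the mean of the chromosome outside the stretch (0.7749) and in the share of bins gained (0.9824). Of 87 named genes, 14 had such a tumour. The share over all genes is not given here, and some of the 87 were named for their high or low values. The genes also share the same arrays, so no excess is read from that count. ARF-110 was the high tumour for Traf3ip2 (0.7116), Ros1 (0.7397), Kitl (0.7592), Mdm2 (0.7781) and Irak3 (0.7444), all within its long gain.

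ARF-128 was the low tumour for Polrmt, the mitochondrial RNA polymerase (0.8141), Elane (0.8436), Wdr18 (0.7336), Tcf3 (0.7259), Mknk2 (0.7578) and Gadd45b (0.7341) in the stretch, and for Ifng (0.7152) outside it. It was the high tumour for Diras1 (0.9481) and Ikbip (0.8167). These 9 values come from the denser ARF-128 array, which has the largest probe noise, 0.78. On its sparser array the same genes read 0.06 (Polrmt), 0.23 (Elane), 0.07 (Wdr18), 0.38 (Tcf3), 0.59 (Mknk2), 0.09 (Gadd45b), 0.05 (Ifng), -0.47 (Diras1) and 0.22 (Ikbip), and the part of noise in the difference was not tested.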

How the results depend on the processing

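The count of 2 bins gained in at least 3 tumours became 0 with normexp, with shared probes alone, after GC correction, at a penalty of 10 log n and at a threshold of 0.35, and 1 with bins of 2 Mb. Genes lower by limma (31) became 7 with normexp. With shared probes alone, 1 bin was higher and 3 lower, and 77 genes were lower. With ARF-128 on its sparser array 1 bin and 136 genes were higher and 70 genes lower, and with its 2 arrays averaged 132 genes were higher and 78 lower. With segment means for genes 0 genes were higher and 0 lower (64 and 3 at an unadjusted p under 0.05), and a random block for the scan day left 0 and 0 (177 in either direction at an unadjusted p under 0.05). The cause of these changes was not tested. Shared probes also leave fewer probes per segment, and the part of that was not tested either. Mdm2 went from -0.66 to 0.0259 with segment means. Shares of all autosomal bins or genes under these settings, or without single tumours, are not given here. No changed count is therefore read as particular to chromosome 10.

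Leaving out each tumour in turn gave a chromosome mean of -0.0581 to 0.032, a stretch difference of 0.1299 to 0.2505, 0.7812% to 23.027% of bins gained, 0 to 2 bins gained in at least 3 tumours, 0 to 114 genes higher and 0 to 172 lower, with 0 bins in either direction. The counts of genes were 0 without ARF-104 (121 higher and 67 lower at an unadjusted p under 0.05), without ARF-112 (122 and 64) and without ARF-129 (114 and 57). Without ARF-110 the share of bins gained was 0.7812% against 18.4%. No paired analysis was possible because the tumours form a single group. Signal over background in red was lowest on the denser ARF-128 array, at 4.24, and highest in ARF-104, at 11.0. Probe noise was 0.78 on the former and 0.36 in ARF-104. ARF-110 had the smallest noise, 0.15, at a red signal over background of 6.73. The part of signal strength in the noise was not tested.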

Other observations

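The lowest bin of the chromosome by its mean over 5 tumours, from 48000001 to 49000000, holds Grik2, a kainate-type glutamate receptor subunit. It read 0.17 in ARF-110, -0.30 in ARF-129, -0.44 in ARF-112, -0.32 in ARF-104 and -0.12 in ARF-128, and -0.81 on the sparser ARF-128 array (-0.20 ± 0.24, SD, n = 5, adjusted p of 0.22 by limma). Its probes hold 35.7% G and C. The second highest bin, from 104000001, holds Tmtc2, a protein O-mannosyltransferase, and read 0.26, 0.07, 0.06, -0.005 and 0.28 in the same order of tumours (0.13 ± 0.13, SD, n = 5, adjusted p of 0.25 by limma), but -0.26 on the sparser ARF-128 array. In both bins the difference between the ARF-128 arrays was larger than the SD over the tumours.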
